A study of Rattus norvegicus with 12 samples.

Results

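The genes described here are 10 receptors through which hormones, nutrients and nerves tune insulin release: Glp1r, Gipr, Gcgr, Ffar1, Adra2a, Chrm3, Sstr2, Sstr3, Vipr1 and Gpr119. They were taken by symbol, and all 10 were among the 31368 gene names of the count table. Expression was measured by 3prime mRNA sequencing in INS-1 832/3 cells, a clonal rat insulinoma line that serves as a beta-cell model and was labelled wild type in all 12 libraries. The 4 groups of 3 libraries were cells given 50 uM urolithin B for 12 h and then 2 uM islet amyloid polypeptide (IAPP) for 24 h, cells given 2 uM IAPP for 24 h, cells given 50 uM urolithin B for 12 h, and untreated control cells. Urolithin B is a metabolite that gut bacteria make from plant ellagitannins. IAPP is a peptide that beta cells release with insulin and that can aggregate into amyloid; the labels do not name the species of its sequence. All groups were grown in RPMI with 10% FBS. For the urolithin B group, the labels do not give the time between treatment and harvest.

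All 10 genes encode G protein-coupled receptors, which act on insulin release through the class of G protein they engage. Receptors for GLP-1 (Glp1r), GIP (Gipr), glucagon (Gcgr) and VIP (Vipr1), and the lipid-amide receptor Gpr119, engage Gs and raise cAMP, which strengthens glucose-stimulated secretion. The muscarinic acetylcholine receptor Chrm3 and the long-chain fatty acid receptor Ffar1 engage Gq, which activates phospholipase C and releases stored calcium. The adrenergic receptor Adra2a and the somatostatin receptors Sstr2 and Sstr3 engage Gi, which lowers cAMP and restrains secretion.

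Library totals ran from 4828003 to 6681455 counts. The 4 replicate 1 libraries, 1 per group, stood apart from the other 8: they held counts for 22139 to 22615 genes, against 19529 to 20201, and 6.52% to 8.83% of their counts were mitochondrial rRNA, against 13.1% to 20.9%. That share averaged 14.3% ± 6.85 in urolithin B + IAPP cells, 15.1% ± 6.39 in IAPP cells, 12.1% ± 2.84 in urolithin B cells and 11.6% ± 2.87 in control cells (SD, n = 3), and its part in the results was not tested. Of 13 beta-cell markers, 11 passed the filter on low counts, while Neurod1 and G6pc2 were at 0 counts in every library. Pancreatic acinar markers summed to at most 0.962 CPM in any library, and the delta- and PP-cell hormones Sst and Ppy were at 0. The delta-cell marker Hhex reached 2.85 CPM (18 counts) in a urolithin B + IAPP library. A value of 0 is weak evidence of absence here, since Neurod1 and G6pc2 were also at 0. Markers of other cell types were not all absent. The 4 ductal markers summed to 16.9 to 28.9 CPM in urolithin B + IAPP libraries, 22.3 to 30.2 CPM in IAPP libraries, 20.3 to 24.5 CPM in urolithin B libraries and 14.1 to 25.8 CPM in control libraries. Among them Krt7 averaged 10.4 ± 2.01, 13.5 ± 0.548, 10.2 ± 1.28 and 6.24 ± 1.40 CPM in the same order (SD, n = 3). The 3 fibroblast markers, with Col1a2 at 0 throughout, summed to 1.68 to 38.9 CPM in urolithin B + IAPP libraries, 7.43 to 62.9 CPM in IAPP libraries, 2.02 to 15.5 CPM in urolithin B libraries and 13.1 to 30.6 CPM in control libraries. The 4 macrophage markers summed to 5.97 to 33.2 CPM in urolithin B + IAPP libraries, 8.86 to 36.7 CPM in IAPP libraries, 7.30 to 27.1 CPM in urolithin B libraries and 6.51 to 29.4 CPM in control libraries. In every group the highest fibroblast sum and the highest macrophage sum were those of the replicate 1 library. The 3 endothelial markers summed to at most 16.9 CPM in any library. The part of these markers in the results was not tested. CPM values are counts scaled by the library total and its TMM factor to a common library size. With reads near the transcript end, they are compared between groups for 1 gene and not between genes.

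Of the 10 receptors, 8 passed the filter and were among the 16814 genes tested. The other two were near the floor. Sstr2 had 0 counts in all 12 libraries, which by counting error allows at most 3 counts, or 0.461 to 0.681 CPM, in each. Ffar1 had 9 counts in all: 0, 0 and 1 in the urolithin B + IAPP libraries, 1, 1 and 0 in the IAPP libraries, 1, 0 and 0 in the urolithin B libraries and 3, 0 and 2 in the control libraries. Neither gene was compared between groups. In the GRCr8 RefSeq annotation Sstr2 overlaps Slc39a11, a zinc transporter gene with 9391 counts over the 12 libraries. The Iapp gene itself, also at 0 counts in all 12, overlaps Slco1a5, which had 3957. Overlap and an empty row did not always go together: Gipr overlaps Eml2 and had 9675 counts, whereas Neurod1 and G6pc2 overlap no annotated gene and had 0. Ffar1 overlaps none and lies beside Ffar3, a receptor for short-chain fatty acids with 2362 counts in all. Ffar3 averaged 37.0 ± 4.26 CPM in urolithin B + IAPP cells, 31.2 ± 4.77 CPM in IAPP cells, 38.9 ± 6.28 CPM in urolithin B cells and 35.95 ± 3.21 CPM in control cells (SD, n = 3). Whether the annotation behind the counts set the values of 0 was not tested.

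The main model, which holds the groups alone, called 0 of the 8 tested receptors after IAPP. In the second model, which adds the replicate number as a term beside the groups, 4 receptors fell and 1 rose after IAPP. The glucagon receptor Gcgr was at 0.491 times its control level, Gpr119 at 0.456 times, the somatostatin receptor Sstr3 at 0.593 times and the GIP receptor Gipr at 0.710 times, while the muscarinic receptor Chrm3 was at 1.56 times. When urolithin B preceded IAPP, the same 5 receptors moved the other way relative to IAPP alone. Glp1r, Adra2a and Vipr1 passed the threshold in neither comparison. In the main model, of the groups alone, edgeR called 0 of the 8 receptors in either comparison at an adjusted p of 0.05. The 2 models differ in how they treat the spread that same-numbered libraries share.

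**Figure D1:**
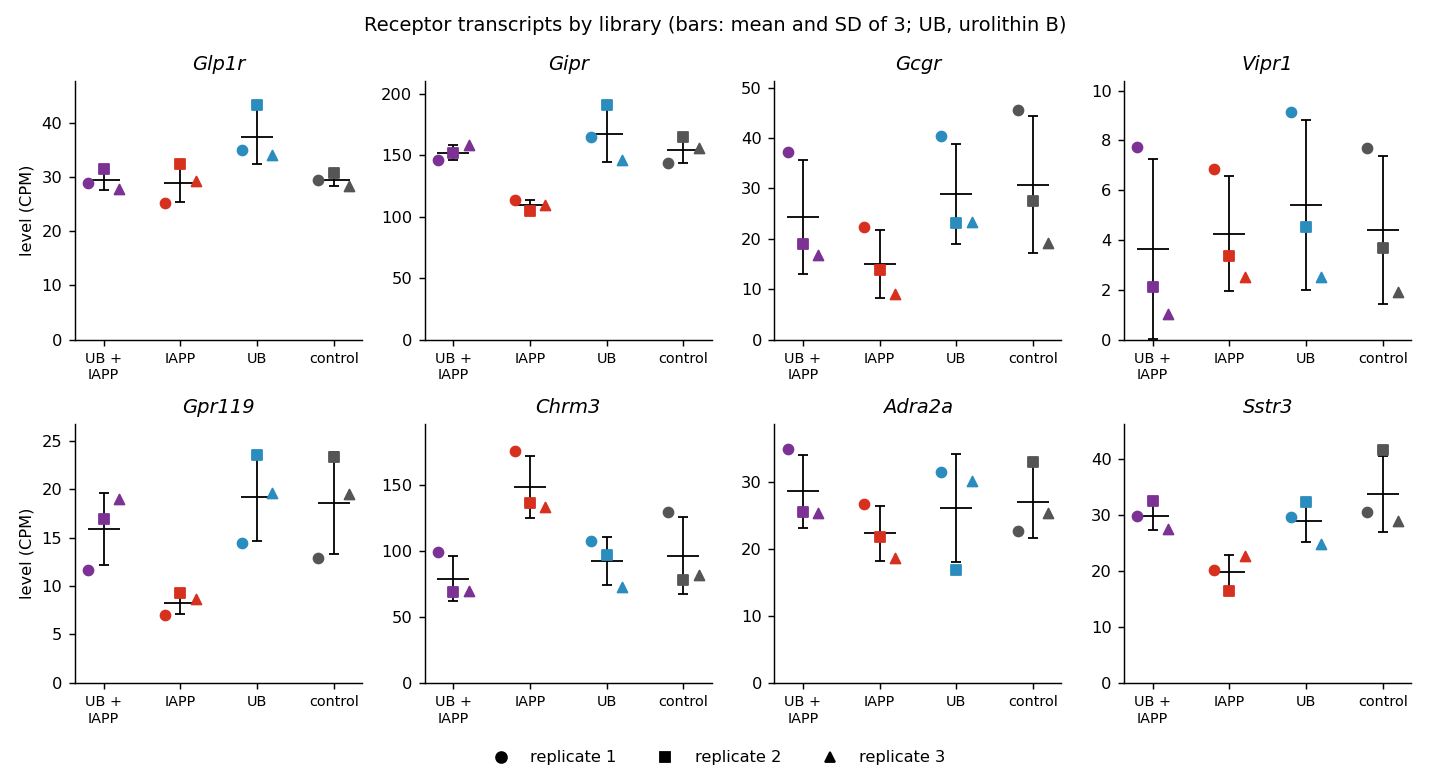
Level of each tested receptor in CPM (vertical axes, from 0) in the 3 libraries of each group, with circles, squares and triangles for replicates 1, 2 and 3 and bars for the mean and SD. The IAPP points of Gipr, Sstr3 and Gpr119 lie below all 3 control points and all 3 urolithin B + IAPP points, those of Chrm3 lie above them, and those of Glp1r overlap both groups.

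Promoter letters are shown for Gpr119, Gcgr and Sstr3, called lower after IAPP with the replicate number in the model, and for Chrm3, called higher. They are RefSeq sequences of the GRCr8 assembly, from 250 bases before to 50 bases after the annotated start, and 9 of the 10 receptors had an entry; the entry not found was that of Gipr. The capitals mark the cAMP response element half-site TGACG, the GC box GGGCGG, the TATA box TATAAA and the CCAAT box CCAAT on either strand; these 4 motifs do not contain one another.
Gpr119 (chrX:132736031-132736330, minus strand): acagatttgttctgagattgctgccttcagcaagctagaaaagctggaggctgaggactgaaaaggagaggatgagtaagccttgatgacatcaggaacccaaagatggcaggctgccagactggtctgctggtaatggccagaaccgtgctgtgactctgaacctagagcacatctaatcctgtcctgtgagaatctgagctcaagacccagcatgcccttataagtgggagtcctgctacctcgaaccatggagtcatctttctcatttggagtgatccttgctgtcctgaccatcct
Gcgr (chr10:106306553-106306852, plus strand): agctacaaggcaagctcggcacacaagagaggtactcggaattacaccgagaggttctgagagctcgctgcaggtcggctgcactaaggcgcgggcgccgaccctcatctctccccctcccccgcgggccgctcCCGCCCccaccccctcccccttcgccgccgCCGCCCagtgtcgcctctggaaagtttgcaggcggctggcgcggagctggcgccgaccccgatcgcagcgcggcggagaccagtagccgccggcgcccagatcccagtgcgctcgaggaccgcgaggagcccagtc
Sstr3 (chr7:111980201-111980500, minus strand): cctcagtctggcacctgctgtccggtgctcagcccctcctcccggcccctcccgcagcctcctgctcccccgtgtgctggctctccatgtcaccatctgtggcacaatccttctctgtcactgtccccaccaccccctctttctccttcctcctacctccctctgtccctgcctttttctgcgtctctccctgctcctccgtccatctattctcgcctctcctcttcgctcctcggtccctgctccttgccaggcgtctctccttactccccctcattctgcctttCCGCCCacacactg
Chrm3 (chr17:64696677-64696976, plus strand): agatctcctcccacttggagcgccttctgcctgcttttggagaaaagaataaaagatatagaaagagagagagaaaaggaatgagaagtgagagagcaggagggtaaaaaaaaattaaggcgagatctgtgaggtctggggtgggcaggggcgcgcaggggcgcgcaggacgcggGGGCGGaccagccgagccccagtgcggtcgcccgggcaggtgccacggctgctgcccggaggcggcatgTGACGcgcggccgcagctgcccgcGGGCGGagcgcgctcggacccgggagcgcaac
None of the 4 motifs is spelled out in the Gpr119 window. The 50 bases after the annotated start of Gpr119 begin with atg, the letters of a start codon. The entry may therefore begin at the coding sequence and not at the start of the transcript. Whether this window covers the Gpr119 promoter was not tested. The Gcgr window, the first of 2 entries for that gene, holds 2 GC boxes and the Sstr3 window holds 1. The Chrm3 window holds 1 half-site and 2 GC boxes. Among all 33469 promoter entries, 21.2% hold the half-site, 33.1% the GC box, 14.2% the TATA box and 37.5% the CCAAT box. A match of letters is a description of the window and not evidence of binding.

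Gpr119 had the largest fall among the 8 tested receptors after IAPP. It is a Gs-coupled receptor for oleoylethanolamide and related lipids. Its level was 11.7, 17.0 and 18.9 CPM in the urolithin B + IAPP libraries, 7.02, 9.23 and 8.63 CPM in the IAPP libraries, 14.4, 23.6 and 19.6 CPM in the urolithin B libraries and 12.9, 23.4 and 19.5 CPM in the control libraries, for replicates 1, 2 and 3. Every IAPP library was below every library of the other groups, and replicate 1 was the lowest library in each group. IAPP against control gave a log2 fold change of -1.13 ± 0.18 (SE; edgeR, adjusted p = 0.000169) with the replicate number in the model and -1.17 ± 0.27 (adjusted p = 0.0835) without it. Urolithin B + IAPP against IAPP gave 0.92 ± 0.18 (adjusted p = 0.00249) with the replicate number and 0.94 ± 0.27 (adjusted p = 0.245) without it. Within replicate numbers 1, 2 and 3 the log2 ratios were -0.87, -1.33 and -1.17 for IAPP over control and 0.73, 0.87 and 1.12 for urolithin B + IAPP over IAPP. Without replicate 1, deviations from group means in same-numbered libraries correlated at r = -0.06 to 0.02. Here and below, the ratios for replicates 2 and 3 therefore match libraries by number only.

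The glucagon receptor Gcgr, through which alpha-cell glucagon can raise cAMP in beta cells, had a fall of like size but a wide spread within groups. It stood at 37.3, 19.1 and 16.7 CPM in the urolithin B + IAPP libraries, 22.3, 13.7 and 9.08 CPM in the IAPP libraries, 40.3, 23.1 and 23.3 CPM in the urolithin B libraries and 45.7, 27.4 and 19.1 CPM in the control libraries. Replicate 1 was the highest library of each group, and the replicate 1 IAPP library lay above the replicate 3 control library, so IAPP and control libraries overlapped. The log2 fold change of IAPP over control was -1.03 ± 0.15 (adjusted p = 5.72e-05) with the replicate number and -1.02 ± 0.43 (adjusted p = 0.421) without it. Same-numbered libraries differed by -1.03, -0.99 and -1.06 for replicates 1, 2 and 3. Replicates 2 and 3 are matched by number only, so the closeness of these values is no measure of the spread. Urolithin B + IAPP over IAPP was 0.69 ± 0.15 (adjusted p = 0.00671) with the replicate number and 0.68 ± 0.43 (adjusted p = 0.817) without it. In the model of the groups alone both values depended on the library: IAPP over control was -1.43 without IAPP replicate 1 and -0.61 without control replicate 1, and urolithin B + IAPP over IAPP was 1.09 without IAPP replicate 1, 0.43 without IAPP replicate 3 and 0.26 without urolithin B + IAPP replicate 1. In GRCr8 the gene overlaps LOC103693493, which had 224 counts in all against 1695 for Gcgr, and counts of overlapping genes are uncertain.

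Gipr, the receptor for the gut hormone GIP, had 465 to 1226 counts per library. Its level was 146, 152 and 158 CPM in the urolithin B + IAPP libraries, 114, 105 and 109 CPM in the IAPP libraries, 165, 190.3 and 146 CPM in the urolithin B libraries and 143, 165 and 155 CPM in the control libraries. The IAPP libraries were the lowest 3 of the 12. Gipr averaged 109 ± 4.56 CPM in IAPP cells and 154 ± 10.8 CPM in control cells (SD, n = 3). The log2 fold change between them was -0.49 ± 0.11 (adjusted p = 0.0031) with the replicate number and -0.50 ± 0.12 (adjusted p = 0.0776) without it. Urolithin B + IAPP cells averaged 152 ± 6.05 CPM, which against IAPP was 0.47 ± 0.11 on the log2 scale with the replicate number (adjusted p = 0.00637) and 0.48 ± 0.11 without it (adjusted p = 0.134).

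Glp1r, the GLP-1 receptor and the target of the incretin drugs, passed the threshold in none of the comparisons. It was at 28.9, 31.4 and 27.8 CPM in the urolithin B + IAPP libraries, 25.2, 32.4 and 29.3 CPM in the IAPP libraries, 35.0, 43.3 and 34.0 CPM in the urolithin B libraries and 29.5, 30.7 and 28.4 CPM in the control libraries. IAPP libraries lay on both sides of the control libraries. The log2 fold change was -0.04 ± 0.13 with the replicate number (95% interval -0.30 to 0.22, adjusted p = 0.905) and -0.03 ± 0.13 without it (adjusted p = 0.9995). Under both intervals a fall of the size seen for Gpr119, Gcgr, Sstr3 or Gipr in the same comparison lies outside the range for Glp1r. Urolithin B + IAPP over IAPP was 0.03 ± 0.13 with the replicate number (95% interval -0.23 to 0.29, adjusted p = 0.941) and 0.02 ± 0.13 without it (95% interval -0.27 to 0.32, adjusted p = 0.9992). With library totals alone as the scale the value without the replicate number was -0.01 and the direction flipped, so no direction is given for Glp1r. The difference between the Glp1r and Gipr changes was not itself tested.

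Vipr1, a receptor for VIP and PACAP, had 6 to 52 counts per library. It was at 7.75, 2.10 and 1.02 CPM in the urolithin B + IAPP libraries, 6.86, 3.38 and 2.50 CPM in the IAPP libraries, 9.16, 4.50 and 2.50 CPM in the urolithin B libraries and 7.69, 3.67 and 1.89 CPM in the control libraries. In each group replicate 1 was the highest and replicate 3 the lowest library, and all groups overlapped. IAPP over control was -0.03 ± 0.32 on the log2 scale with the replicate number, with a 95% interval from -0.70 to 0.63 (adjusted p = 0.971). Without the replicate number it was -0.05 ± 0.76, with an interval from -1.71 to 1.60 (adjusted p = 0.9995). Urolithin B + IAPP over IAPP was -0.32 ± 0.33 (95% interval -0.99 to 0.36, adjusted p = 0.691) with the replicate number and -0.23 ± 0.76 (95% interval -1.89 to 1.43, adjusted p = 0.9992) without it.

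Among the Gq-coupled receptors Chrm3 could be tested, and it was the receptor called higher after IAPP with the replicate number in the model. Chrm3 carries the acetylcholine signal of the vagal nerve to the beta cell. Its level was 99.0, 68.5 and 69.3 CPM in the urolithin B + IAPP libraries, 176, 136 and 133 CPM in the IAPP libraries, 108, 97.0 and 72.3 CPM in the urolithin B libraries and 129.6, 77.5 and 81.5 CPM in the control libraries. All 3 IAPP libraries were above the other 9. Chrm3 averaged 148 ± 23.7 CPM in IAPP cells and 96.2 ± 29.0 CPM in control cells (SD, n = 3). The log2 fold change was 0.64 ± 0.11 (adjusted p = 0.000355) with the replicate number and 0.62 ± 0.23 (adjusted p = 0.335) without it. With urolithin B before IAPP the mean was 78.9 ± 17.4 CPM, a log2 fold change against IAPP of -0.92 ± 0.11 (adjusted p = 4.14e-06) with the replicate number and -0.91 ± 0.23 (adjusted p = 0.159) without it. The ratios within replicate numbers were 0.44, 0.81 and 0.71 for IAPP over control, and -0.83, -0.99 and -0.94 for urolithin B + IAPP over IAPP. In GRCr8 the gene overlaps LOC134482864, for which no count is used here, and its counts are uncertain for that reason.

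Of the Gi-coupled receptors, Sstr3 fell after IAPP with the replicate number in the model, and Adra2a passed the threshold in neither model. Sstr3, a somatostatin receptor, was at 29.7, 32.5 and 27.5 CPM in the urolithin B + IAPP libraries, 20.1, 16.4 and 22.7 CPM in the IAPP libraries, 29.6, 32.3 and 24.8 CPM in the urolithin B libraries and 30.6, 41.5 and 29.0 CPM in the control libraries. The 3 IAPP libraries were the lowest of the 12. IAPP over control was -0.75 ± 0.15 on the log2 scale (adjusted p = 0.00226) with the replicate number and -0.77 ± 0.18 (adjusted p = 0.0769) without it. Urolithin B + IAPP over IAPP was 0.59 ± 0.16 (adjusted p = 0.0248) with the replicate number and 0.60 ± 0.18 (adjusted p = 0.253) without it. Adra2a, through which adrenaline and noradrenaline restrain secretion, was at 34.9, 25.6 and 25.4 CPM in the urolithin B + IAPP libraries, 26.8, 21.8 and 18.6 CPM in the IAPP libraries, 31.5, 16.9 and 30.2 CPM in the urolithin B libraries and 22.8, 33.0 and 25.4 CPM in the control libraries. Its groups overlapped in both comparisons. With the replicate number the log2 fold change was -0.27 ± 0.19 for IAPP over control (95% interval -0.67 to 0.13, adjusted p = 0.47), and it was 0.35 ± 0.19 for urolithin B + IAPP over IAPP (95% interval -0.05 to 0.74, adjusted p = 0.36). Without the replicate number these were -0.26 ± 0.25 (95% interval -0.81 to 0.28, adjusted p = 0.914) and 0.35 ± 0.25 (95% interval -0.20 to 0.89, adjusted p = 0.873).

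**Figure D2:**
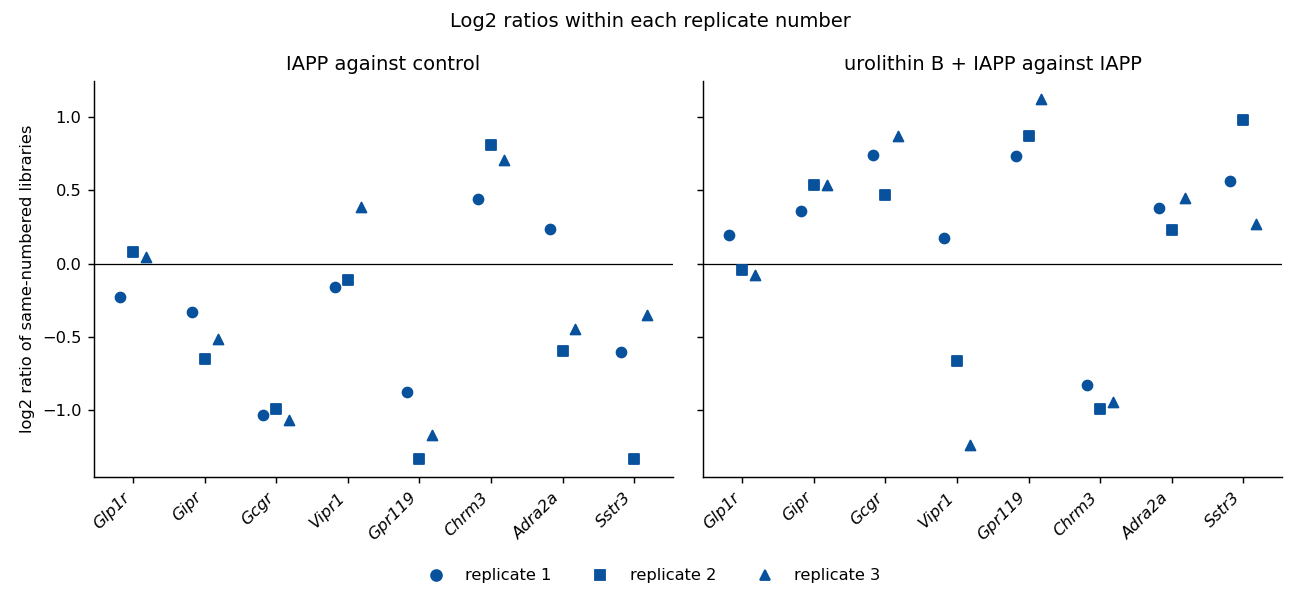
Log2 ratio of same-numbered libraries (vertical axis) for each tested receptor, for IAPP over control on the left and urolithin B + IAPP over IAPP on the right, with 1 symbol per replicate number. Gipr, Gcgr, Gpr119 and Sstr3 are below 0 on the left and above 0 on the right in all 3 replicate numbers, Chrm3 is the reverse, and Glp1r and Vipr1 have both signs in each panel.

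Set against all genes, IAPP against control called 5 of the 8 tested receptors with the replicate number in the model, 4 lower and 1 higher, where 7.83% of all tested genes were called, 4.04% lower and 3.78% higher. Without the replicate number it called 0 of 8, where 0.845% of all tested genes were called; 5 of the 8 had an unadjusted p under 0.05, as had 10% of all tested genes, and DESeq2 called 3 (Gipr, Sstr3 and Gpr119) and 2.97% of all genes. Under the model with the replicate number 5 had such a p, as had 20.5% of all genes. The IAPP libraries did not overlap the control libraries for 3 receptors that were lower and 1 that was higher, against 7.51% and 7.67% of all tested genes. Urolithin B + IAPP against IAPP called 5 of 8 with the replicate number, 4 higher and 1 lower, where 5.24% of all tested genes were called, 2.51% higher and 2.73% lower. Without it 0 of 8 were called, where 0.577% of all tested genes were; 4 of the 8 had an unadjusted p under 0.05, as had 8.5% of all tested genes, and DESeq2 called 2 (Gipr and Chrm3) and 1.9% of all genes. Adding the replicate number gave 5 with such a p, and 18% of all genes. The libraries of these groups did not overlap for 3 receptors that were higher and 1 that was lower, against 6.6% and 6.8% of all tested genes. The median log2 fold change of the 8 receptors with the replicate number was -0.38 for IAPP over control, beside 0.04 over all tested genes, and 0.41 for urolithin B + IAPP over IAPP, beside -0.01. Both comparisons use the same IAPP libraries, so their values are not independent of each other.

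With the replicate 1 libraries left out and only the groups in the model, edgeR called the same 5 receptors in IAPP against control, where 5.12% of the 14715 genes tested then were called. In urolithin B + IAPP against IAPP it then called 3, namely Gipr, Chrm3 and Gpr119, where 2.84% of all genes were called. Some calls rested on single libraries. With the replicate number in the model and IAPP replicate 2 left out, IAPP against control called 3 receptors, with Gipr (adjusted p = 0.0554) and Sstr3 (adjusted p = 0.0524) no longer past the threshold. In urolithin B + IAPP against IAPP, Sstr3 lost its call without any single library of the IAPP replicates 1 or 2 or of the urolithin B + IAPP replicates 1, 2 or 3, with adjusted p from 0.0624 to 0.245. Library totals alone as the scale also ended that call (adjusted p = 0.064). There Gipr lost its call without IAPP replicate 2 (adjusted p = 0.0914) or urolithin B + IAPP replicate 3 (adjusted p = 0.0931), and Gcgr without urolithin B + IAPP replicate 1 (adjusted p = 0.0622). Chrm3 and Gpr119 kept their calls in both comparisons whichever library was left out.

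**Figure D3:**
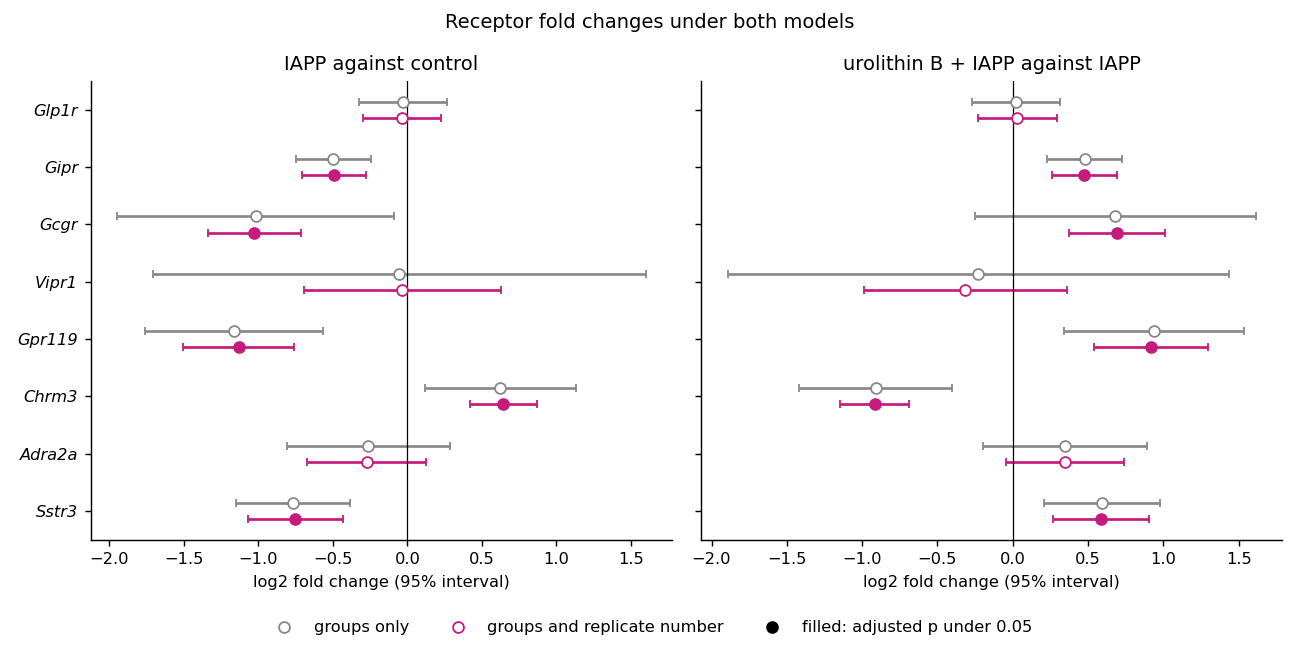
Log2 fold change and 95% interval (horizontal axes) of each tested receptor in IAPP against control (left) and urolithin B + IAPP against IAPP (right), in grey with the groups alone in the model and in magenta with the replicate number added; filled points passed the adjusted p of 0.05. Both models place Gipr, Gcgr, Gpr119 and Sstr3 left of 0 on the left and right of 0 on the right, and place Chrm3 on the opposite sides. The intervals are wider without the replicate number for every receptor, most of all for Gcgr, Vipr1 and Chrm3.

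Urolithin B alone called none of the receptors. In urolithin B against control 0 of 8 were called by edgeR in either model and by DESeq2, where 0% of all tested genes were called without the replicate number and 0.00595% with it. Glp1r had the only unadjusted p under 0.05 among the 8 in either model, against 0.898% of all tested genes without the replicate number and 4.4% with it. It averaged 37.5 ± 5.08 CPM in urolithin B cells and 29.5 ± 1.18 CPM in control cells (SD, n = 3), and the log2 fold change was 0.34 ± 0.13 without the replicate number (95% interval 0.05 to 0.63, adjusted p = 0.9999) and 0.34 ± 0.12 with it (adjusted p = 0.999). The lowest urolithin B library, at 34.0 CPM, was above the highest control library, at 30.7 CPM; 2.24% of all tested genes had urolithin B libraries wholly above the control libraries. The other 7 receptors had log2 fold changes from -0.22 for Sstr3 to 0.27 for Vipr1 without the replicate number, and their groups overlapped.

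Cells given urolithin B and then IAPP were also set against control cells and against cells given urolithin B alone. Against control, 0 of 8 receptors were called in either model, where 0% of all tested genes were called without the replicate number and 0.0714% with it, and DESeq2 called 0; 0 of the 8 had an unadjusted p under 0.05 without the replicate number and 2 had one with it, against 2.44% and 7.9% of all tested genes. Those were Gcgr, at -0.34 ± 0.14 (adjusted p = 0.531), and Chrm3, at -0.27 ± 0.11 (adjusted p = 0.52). The 95% interval for Gipr with the replicate number ran from -0.23 to 0.19, for Gpr119 from -0.55 to 0.12 and for Sstr3 from -0.47 to 0.13, so falls of the size seen after IAPP alone lie outside the ranges of all 3. Against urolithin B alone, 0 of 8 were called in either model, where 0% and 0.0119% of all tested genes were called, and DESeq2 called 0. The receptors with an unadjusted p under 0.05 there numbered 1 without the replicate number and 3 with it, against 1.67% and 7.17% of all tested genes. Glp1r was among them in both models, at -0.35 ± 0.12 with the replicate number (adjusted p = 0.623). With it Chrm3 was at -0.23 ± 0.11 (adjusted p = 0.694) and Vipr1 at -0.65 ± 0.31 (adjusted p = 0.695). For Glp1r the urolithin B + IAPP libraries were wholly below the urolithin B libraries, as in 2.5% of all tested genes. These comparisons share the urolithin B + IAPP libraries with the comparison against IAPP.

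The interaction asks whether the IAPP effect differed between cells with and without urolithin B. With the replicate number in the model it was called for 1 of 8 receptors, where 1.63% of all tested genes were called, and without it for 0 of 8, where 0.0297% were; 4 of the 8 had an unadjusted p under 0.05 without the replicate number, as had 5.4% of all tested genes, and DESeq2 called 0. Adding it gave 5 of the 8, and 13.5% of all genes. The called receptor was Chrm3, at -0.88 ± 0.16 on the log2 scale with the replicate number (95% interval -1.20 to -0.56, adjusted p = 0.0022) and -0.85 ± 0.33 without it (adjusted p = 0.803). Sstr3 was at 0.80 ± 0.21 (adjusted p = 0.0533), Gcgr at 0.76 ± 0.21 (adjusted p = 0.0617) and Gpr119 at 0.86 ± 0.24 (adjusted p = 0.0718), all with the replicate number and all short of the threshold. Gipr was at 0.36 ± 0.15 (adjusted p = 0.252). For these 4 receptors a difference of the IAPP effect between cells with and without urolithin B was therefore not established.

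Genes that work with these receptors were followed in 5 lists. For scale, IAPP against control called 7.83% of all tested genes with the replicate number and 0.845% without it. For urolithin B + IAPP against IAPP these shares were 5.24% and 0.577%, and for the interaction 1.63% and 0.0297%. A count of called genes near these shares says nothing particular about a list. Among 34 other islet G protein-coupled receptors, 23 were tested and 1 fell after IAPP without the replicate number: Gpr6, an orphan receptor that raises cAMP without added ligand. Gpr6 averaged 15.1 ± 4.29 CPM in urolithin B + IAPP cells, 5.96 ± 0.371 CPM in IAPP cells, 15.0 ± 3.18 CPM in urolithin B cells and 17.4 ± 1.498 CPM in control cells (SD, n = 3). It fell after IAPP (-1.55 ± 0.24, adjusted p = 0.0110) and rose in urolithin B + IAPP against IAPP (1.34 ± 0.24, adjusted p = 0.0336), both without the replicate number. Its interaction was called with the replicate number (1.56 ± 0.28, adjusted p = 0.00258). With the replicate number a further member of the list fell after IAPP, the PACAP receptor gene Adcyap1r1 (-0.97 ± 0.18, adjusted p = 0.000637). The median of the list was -0.06 for IAPP over control with the replicate number, beside 0.04 over all tested genes.

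Of the 11 ligand genes 5 were tested, and Gcg, which encodes glucagon and GLP-1, was the only member called. It averaged 140 ± 87.6 CPM in urolithin B + IAPP cells, 91.3 ± 57.0 CPM in IAPP cells, 125 ± 86.6 CPM in urolithin B cells and 64.7 ± 41.4 CPM in control cells (SD, n = 3), and the libraries of the groups overlapped. Replicate 1 was the lowest library of each group, at 40.2, 26.2, 37.0 and 18.5 CPM in the same order. With the replicate number it rose in IAPP against control (0.50 ± 0.13, adjusted p = 0.0139), in urolithin B + IAPP against IAPP (0.63 ± 0.12, adjusted p = 0.0020) and in urolithin B against control (0.95 ± 0.13, adjusted p = 0.00103). The list also had 1 gene called higher with the replicate number in urolithin B + IAPP against control. Without the replicate number Gcg was at 0.50 ± 0.80 for IAPP over control (adjusted p = 0.9995). For urolithin B over control it was then at 0.96 ± 0.79 (adjusted p = 0.9999). Gcg is also on the alpha-cell marker list, of which 2 of 5 genes were tested and 1 was at 0 in every library. That list summed to 68.0 to 236 CPM in urolithin B + IAPP libraries, 46.7 to 155 CPM in IAPP libraries, 65.5 to 230 CPM in urolithin B libraries and 38.0 to 123 CPM in control libraries.

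Among the listed G protein subunits and regulators, 22 were in the count file and 20 were tested, and Rgs16, which speeds the shut-off of Gi and Gq proteins, fell after IAPP (-0.81 ± 0.14, adjusted p = 0.0211, without the replicate number). It averaged 35.1 ± 3.87 CPM in urolithin B + IAPP cells, 27.6 ± 3.18 CPM in IAPP cells, 50.7 ± 2.33 CPM in urolithin B cells and 48.4 ± 7.13 CPM in control cells (SD, n = 3). The genes of the G proteins themselves passed no threshold after IAPP. In urolithin B + IAPP against IAPP, with the replicate number, Gnas for Gs alpha (0.42 ± 0.12, adjusted p = 0.0390) and Gnai2 for a Gi alpha subunit (0.37 ± 0.10, adjusted p = 0.0197) rose.

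Of the 34 genes of cAMP synthesis, breakdown and effectors 33 were tested, and 2 changed after IAPP without the replicate number. Pkib, an inhibitor of protein kinase A, rose (0.75 ± 0.11, adjusted p = 0.0101). It averaged 31.7 ± 2.11 CPM in urolithin B + IAPP cells, 44.5 ± 2.45 CPM in IAPP cells, 28.1 ± 1.49 CPM in urolithin B cells and 26.5 ± 2.21 CPM in control cells (SD, n = 3). Pde2a, a phosphodiesterase that breaks down cAMP and cGMP, fell (-1.26 ± 0.22, adjusted p = 0.0193). It averaged 11.9 ± 0.705 CPM in urolithin B + IAPP cells, 8.75 ± 2.66 CPM in IAPP cells, 20.5 ± 2.20 CPM in urolithin B cells and 21.1 ± 2.80 CPM in control cells (SD, n = 3). With the replicate number 3 genes rose after IAPP, adding the kinase gene Sik2 (0.54 ± 0.14) and the inhibitor gene Pkia (0.34 ± 0.10). Another 3 fell, adding the phosphodiesterase gene Pde10a (-0.62 ± 0.11) and Rap1a (-0.37 ± 0.12), a small GTPase downstream of the cAMP sensor Epac. Of all tested genes 3.78% were called higher and 4.04% lower in that comparison. In urolithin B + IAPP against IAPP with the replicate number, Pkib (-0.49 ± 0.12, adjusted p = 0.0164) and Sik2 (-0.51 ± 0.14, adjusted p = 0.0333) fell. Rap1a (0.52 ± 0.12, adjusted p = 0.00637) and Pde10a (0.41 ± 0.11, adjusted p = 0.0304) rose. Pde2a was at 0.44 ± 0.20 there (adjusted p = 0.214). The list median for IAPP over control was -0.02, beside 0.04 over all tested genes.

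In the phospholipase C branch, the route used by Chrm3, 13 of 15 genes were tested and 0 were called after IAPP without the replicate number. With it the protein kinase C genes Prkce (0.52 ± 0.13, adjusted p = 0.0116) and Prkcb (-0.40 ± 0.10, adjusted p = 0.0138) moved in opposite directions. In urolithin B + IAPP against IAPP the signs were the other way round, with Prkce at -0.51 ± 0.13 (adjusted p = 0.0185) and Prkcb at 0.57 ± 0.10 (adjusted p = 0.000872), and Plcb3, a phospholipase C, rose (0.78 ± 0.18, adjusted p = 0.0103). Prkce averaged 62.4 ± 11.8 CPM in urolithin B + IAPP cells, 88.5 ± 0.843 CPM in IAPP cells, 61.1 ± 10.7 CPM in urolithin B cells and 62.0 ± 5.68 CPM in control cells (SD, n = 3). The list median for IAPP over control was 0.13 with the replicate number.

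**Figure D4:**
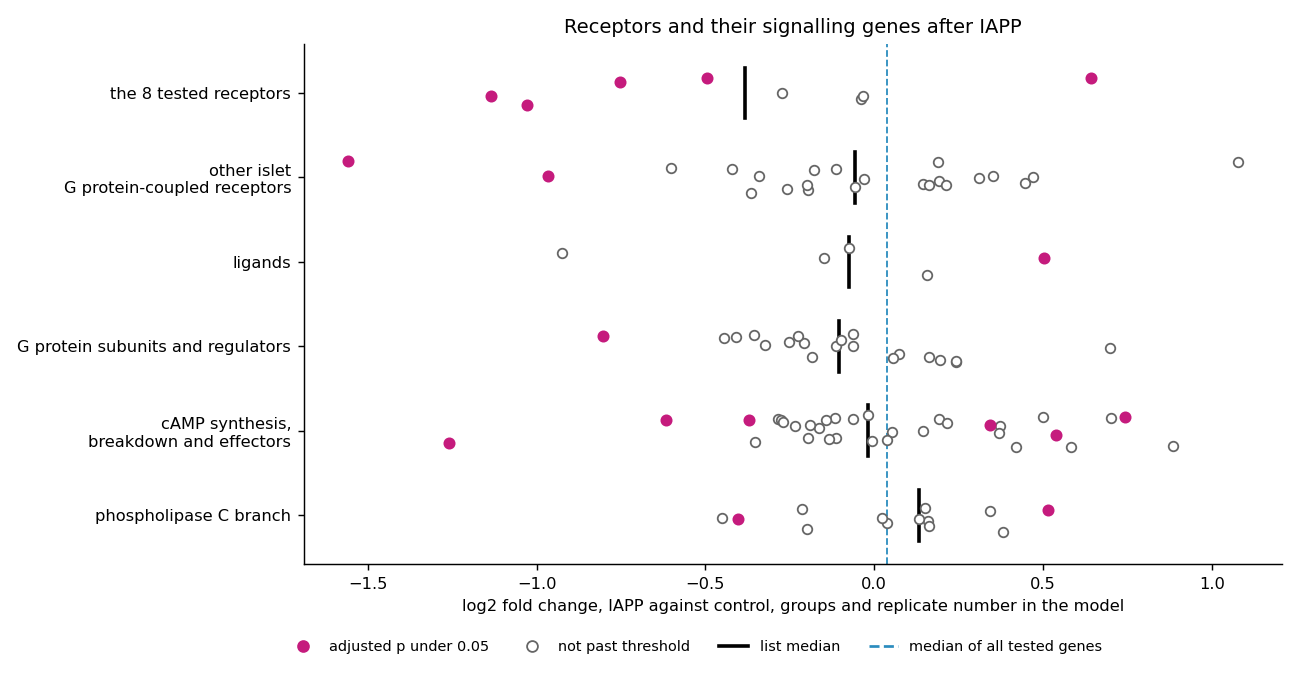
Log2 fold change of IAPP over control (horizontal axis, replicate number in the model) for each tested gene of the receptor list and the 5 lists of genes that work with them, 1 point per gene, filled where the adjusted p was under 0.05. The receptor median (black bar) is -0.38, the medians of the other lists run from -0.11 to 0.13, and the dashed line marks the median of all tested genes at 0.04.

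The genes whose levels ran most like those of the 3 receptors with the highest mean CPM were found by Pearson's r of log2 CPM over the 12 libraries, after the mean of each replicate number was subtracted, among 10961 genes. The 12 points share the 4 groups and the scaling, so r is a description. For Gipr they were Clstn2 (r = 0.98), a membrane protein of the calsyntenin family, Vamp2 (0.97), the vesicle SNARE protein used in insulin exocytosis, and Pabpc4 (0.97), a poly(A)-binding protein. For Chrm3 they were Nfatc3 (0.97), a calcium-regulated transcription factor, Slc23a2 (0.97), a vitamin C transporter, and Fam168a (0.97). For Glp1r the highest values were lower, with Mapk8ip3 (0.88), Syf2 (0.87) and Ctr9 (0.87). Vamp2 averaged 72.4 ± 2.17 CPM in urolithin B + IAPP cells, 59.5 ± 2.65 CPM in IAPP cells, 78.0 ± 7.12 CPM in urolithin B cells and 77.8 ± 7.39 CPM in control cells (SD, n = 3). Between receptors, measured the same way, r was 0.96 for Gipr with Gpr119, 0.94 for Gcgr with Gpr119 and 0.51 for Glp1r with Gipr. Chrm3 ran opposite to Gpr119, with r = -0.82.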

How the data were processed

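The 12 INS-1 832/3 libraries were prepared with the QuantSeq 3prime FWD kit, per the labels' protocols. FastQC, Bowtie2 and SAMtools were used, per the submitters' processing notes. Tool versions, read counter, strand setting, genome build and annotation are not named in the labels or the file. The authors deposited raw read counts (whole numbers, 1 column per library), in a version that replaced an earlier one per the series text. RefSeq tables of GRCr8 matched 20819 of the 31368 names and all 10 receptors, and served for names, neighbours and promoter letters only. Counts of overlapping genes are uncertain because the strand setting is unknown.

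edgeR 4.0.16 (R 4.3.3) was run with its quasi-likelihood F-test, TMM factors and filterByExpr on all 12 libraries together, and p-values were adjusted over 16814 genes (Benjamini-Hochberg, threshold 0.05). The sign ± gives the SE of a log2 fold change and the SD of CPM values. The main model held the groups alone, and each of the 6 contrasts was also fitted with the replicate number as a block. Deviations from group means correlated at r = 0.44 to 0.89 over 18 same-number pairs, and at -0.75 to 0.62 over 36 pairs with other numbers. Without replicate 1 the same-number range was -0.06 to 0.02. The numbers thus set replicate 1 apart, and no pairing of replicates 2 and 3 was seen. The common biological coefficient of variation was 0.104 in the blocked fit and 0.332 in the fit of the groups alone. The sample descriptions call the replicates biological but do not say that they were separate cultures, so part of the spread behind the p-values may be technical. Chi-square per degree of freedom between libraries of 1 group was 3.71 or more, above sampling noise. The test was first run on simulated counts with the spread of the blocked fit. The planted changes were larger than those of Gipr, Sstr3 and Chrm3, so that run does not bear on their calls.

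The receptors and lists were chosen with earlier results of these data known. All 10 receptors are described; from each list, genes called without the block are named, otherwise up to 3 with the smallest p after IAPP. Gnas, Gnai2, Plcb3, Adcyap1r1, Sik2, Pkia, Pde10a and Rap1a, called only with the block, were named after their values were seen. Alternatives were DESeq2 1.42.0, other scalings and filters, and libraries left out. Counting limits cover counting error only.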

Additional observations from a re-analysis of the deposited data

Results flagged for a closer look

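For Chrm3 the IAPP effect differed past the threshold between cells that had urolithin B and cells that had not, by -0.88 on the log2 scale with the replicate number in the model (edgeR, adjusted p = 0.0022). The call depends on that term: without it the value was -0.85 (adjusted p = 0.803), and DESeq2 without it called 0 receptors. With the term, the effect was -0.23 in cells given urolithin B and 0.64 in cells without it. The mitochondrial rRNA share averaged 14.3% in urolithin B + IAPP cells, 15.1% in IAPP cells, 12.1% in urolithin B cells and 11.6% in control cells, and its part was not tested.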

How the results depend on the processing

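The 5 receptors called with the replicate block had 1 direction under every alternative run, in both comparisons that called them; calls moved. IAPP against control called 142 genes and 0 receptors with the groups alone in the model. Library totals alone as the scale gave 55 genes and 1 receptor, DESeq2 499 and 3, the replicate block 1316 and 5, and replicates 2 and 3 only 754 and 5; leaving out 1 library gave 42 to 154 genes and 0 to 1 receptor. For urolithin B + IAPP against IAPP (97 genes, 0 receptors) the same settings gave 18 genes by library totals, 319 and 2 receptors by DESeq2, 881 and 5 with the block, 418 and 3 with replicates 2 and 3, and 25 to 99 genes with 1 library left out. The interaction (5 genes, 0 receptors) had 3 genes without a filter or with at least 1 CPM in 3 libraries, 113 by DESeq2, 274 and 1 receptor with the block, 107 and 1 with replicates 2 and 3, and 1 to 2 genes with 1 library left out. Where 0 genes were called, the block called 1 in urolithin B against control, 12 in urolithin B + IAPP against control (DESeq2 4) and 2 in urolithin B + IAPP against urolithin B. The cause of these moves was not tested.

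With the block kept, in alternatives chosen after seeing the data, replicates 2 and 3 gave 775 genes in IAPP against control, 420 genes and 3 receptors in urolithin B + IAPP against IAPP and 116 genes in the interaction, where library totals gave 171. Leaving out 1 library gave 629 to 2114 genes and 3 to 5 receptors, 365 to 1673 genes and 3 to 5 receptors, and 142 to 395 genes and 1 to 2 receptors, in the same order; Sstr3 passed in the interaction without urolithin B replicate 2 or IAPP replicate 3, and Gcgr without urolithin B replicate 3. Higher genes were 64.8% of the calls in IAPP against control, 43.6% with library totals, 48.7% with DESeq2 and 48.3% with the block, and 26.8%, 38.9%, 41.4% and 47.9% of those in urolithin B + IAPP against IAPP. Library totals moved the median of all genes by -0.11 in urolithin B + IAPP against control.

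None of the values that changed sign was called. With replicates 2 and 3 only these were Glp1r (0.059) and Vipr1 (0.064) in IAPP against control, Gcgr (0.00088) and Chrm3 (0.11) in urolithin B against control, Glp1r (-0.074) in urolithin B + IAPP against IAPP and Adra2a (-0.21) in urolithin B + IAPP against control, and with the block kept Glp1r (0.060) and Vipr1 (0.096) after IAPP and Glp1r (-0.070) in urolithin B + IAPP against IAPP. With library totals they were Glp1r in urolithin B + IAPP against IAPP (-0.010, with the block -0.015) and Sstr3 in urolithin B + IAPP against urolithin B (-0.052). Leaving out 1 library at a time gave log2 fold changes of -0.12 to 0.060 for Glp1r and -0.59 to 0.61 for Vipr1 in IAPP against control. The same in urolithin B against control gave -0.41 to 0.31 for Gcgr, -0.20 to 0.19 for Adra2a, -0.19 to 0.22 for Chrm3, -0.34 to 0.94 for Vipr1 and -0.16 to 0.25 for Gpr119. Against IAPP, urolithin B + IAPP gave -0.073 to 0.12 for Glp1r and -1.44 to 0.31 for Vipr1. Against control it gave -0.058 to 0.029 for Glp1r, -0.075 to 0.027 for Gipr, -0.78 to 0.069 for Gcgr, -0.082 to 0.25 for Adra2a, -0.27 to 0.0040 for Sstr3 and -1.51 to 0.39 for Vipr1. Against urolithin B it gave -0.68 to 0.074 for Gcgr, -0.10 to 0.29 for Adra2a, -0.050 to 0.14 for Sstr3 and -1.77 to 0.051 for Vipr1. The interaction ran from -1.70 to 0.11 for Vipr1. With the block kept, IAPP against control gave -0.098 to 0.023 for Glp1r, -0.55 to 0.025 for Adra2a and -0.18 to 0.18 for Vipr1, and Glp1r in urolithin B + IAPP against IAPP ran from -0.036 to 0.091. The filter on low counts left Sstr2 (0 counts) and Ffar1 (9 counts in all) outside the tests, and Vipr1 had 6 to 52 counts per library. Why these counts were low was not tested.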
